A study of Mus musculus with 6 samples.

Results

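The fibroblast growth factors (FGFs) and their receptors were followed here as 10 genes, 7 ligands (Fgf1, Fgf2, Fgf7, Fgf9, Fgf10, Fgf13 and Fgf18) and 3 receptors (Fgfr1, Fgfr2 and Fgfr3), of 18193 genes named on the array. They were chosen by name, and every probe set whose platform annotation names only one of them was used, which gave 20 of the 45037 probe sets tested. A probe set is a group of short oligonucleotides that together read one transcript. All 10 genes had at least 1 probe set, and none was dropped for a low level.

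Most FGFs are secreted, are held at the cell surface and in the matrix by heparan sulfate, and bind receptor tyrosine kinases that signal through the RAS-ERK cascade, which in turn induces its own feedback inhibitors. FGF7 (keratinocyte growth factor) and FGF10 are made by mesenchymal cells such as fibroblasts and act on neighboring epithelium through the IIIb splice form of FGFR2, whereas fibroblasts themselves mainly carry the IIIc forms of FGFR1 and FGFR2. FGF1, FGF2, FGF9 and FGF18 bind IIIc-type receptors among others, and FGF13 belongs to the intracellular FGFs, which act on voltage-gated sodium channels and microtubules. Intracellular FGFs are counted here among the ligands by family name alone.

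RNA came from mouse embryonic fibroblasts (MEFs), which are connective tissue cells grown from embryos, and was read on 6 Affymetrix mouse arrays. The study asked which transcripts change when Atxn3, the gene for the deubiquitinating enzyme ataxin-3, is lost. The groups were 3 samples of Atxn3-KO MEFs, from mice in which Atxn3 is knocked out, and 3 samples of Atxn3-WT MEFs with the gene intact, and the labels name no agent for either group. The methods describe the mice as littermates and the samples as biological replicates. The source of each replicate (its embryo or its culture) is not stated. The p-values thus cover the spread among these samples alone, which can be technical, and the number of arrays limits the precision.

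Values are log2 levels normalized by robust multi-array average (RMA), so a difference of 1 is a doubling. The brighter Atxn3 probe set fell by 3.08 in Atxn3-KO MEFs (standard error 0.096, adjusted p = 2.09e-06 from limma). A dimmer one had a difference of -0.35 (adjusted p = 0.117), and the position of the 2 probe sets relative to the deletion was not given. To give a measure of how bright a probe set for a gene that fibroblasts do not use can be, the 95th percentile of 44 olfactory receptor probe sets was taken on each array, and it lay between 5.26 and 5.43. Among 12 fibroblast markers, 10 lay above that percentile on all 6 arrays, 2 rose and 6 fell on the probe set of highest mean of each gene, beside 31.8% of all genes called (17.1% higher and 14.7% lower). On those probe sets 1 marker changed past 2-fold, Thy1, a surface glycoprotein of fibroblasts, which fell by 4.21 (adjusted p = 2.98e-08), and a second probe set of the collagen gene Col3a1 fell by 1.02 (adjusted p = 6.25e-06). Markers of other cell types are given with the receptors.

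The regions just upstream of Fgf7 and Fgf10 are shown because, of the 7 ligands followed, these are the ones that rose in Atxn3-KO MEFs. RefSeq sequences of GRCm38.p6 were matched by symbol for 8 of the 10 genes, with 12 promoters between them, and Fgf1 and Fgfr1 were not matched. Each line gives the 250 bases before the annotated start, 5′ to 3′ on the gene's strand. Fgf7 lies at chr2:126034408-126034657 (plus strand), with its CCAAT box in capitals. Fgf10 lies at chr13:118714449-118714698 (plus strand), with a GC box read on the opposite strand in capitals.
Fgf7: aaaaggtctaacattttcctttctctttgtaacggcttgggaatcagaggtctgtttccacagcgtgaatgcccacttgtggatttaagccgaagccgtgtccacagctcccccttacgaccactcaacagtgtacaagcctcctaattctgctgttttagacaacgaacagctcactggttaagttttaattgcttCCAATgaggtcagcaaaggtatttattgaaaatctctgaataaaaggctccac
Fgf10: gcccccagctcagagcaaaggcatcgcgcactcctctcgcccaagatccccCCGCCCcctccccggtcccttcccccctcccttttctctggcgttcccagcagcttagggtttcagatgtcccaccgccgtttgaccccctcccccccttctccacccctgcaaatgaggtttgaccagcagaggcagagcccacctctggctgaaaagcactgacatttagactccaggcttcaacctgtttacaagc
Of 6 motifs searched on both strands (the TATA box spelled TATAAA, the CCAAT box, the GC box spelled GGGCGG, the AP-1 site spelled TGACTCA, the E-box spelled CACGTG and the ETS core spelled CCGGAA), Fgf7 held 1 CCAAT match, 53 to 49 bases before the start, and Fgf10 held 1 GC box match, 199 to 194 bases before the start. CCAAT was found in 33.8% and GGGCGG in 32.7% of all 32851 promoters in the table, so neither match sets these genes apart. TATAAA stood in 12.4%, TGACTCA in 4.46%, CACGTG in 6.02% and CCGGAA in 12% of them, and these letters were in neither window. The Fgf7 window had a GC content of 43.6% and that of Fgf10 61.2%, against a median of 52.4% over all promoters. A match is a description of the letters and not of a bound site. Atxn3 lies on chromosome 12, and 0 of the 12 promoters of these FGF genes lie on that chromosome.

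Of the 20 FGF and FGF receptor probe sets, 6 rose and 3 fell in Atxn3-KO MEFs, and 11 had an adjusted p of 0.05 or more. The 9 that passed were 45% of the 20, beside 26% of all 45037 probe sets tested (12.5% higher and 13.5% lower). With the probe set of highest mean standing for each gene, Fgf7, Fgf10, Fgfr2 and Fgfr3 rose, Fgf9 fell, and Fgf1, Fgf2, Fgf13, Fgf18 and Fgfr1 did not pass, beside 31.8% of all genes passing (17.1% higher and 14.7% lower). At the study's thresholds (0.001 for the adjusted p and 2-fold for the change), 2 of the 20 probe sets passed, both of Fgf7, beside 1.31% of all probe sets, or 1 of the 10 genes beside 1.93% of all genes. The median log2 difference over the 20 was -0.0082 and over all probe sets -0.010, and the median size of the difference without its sign was 0.20 over the 20 and 0.11 over all. RNA from whole cultures was measured, so fewer cells of a type and less RNA per cell cannot be told apart in any of these values.

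**Figure D1:**
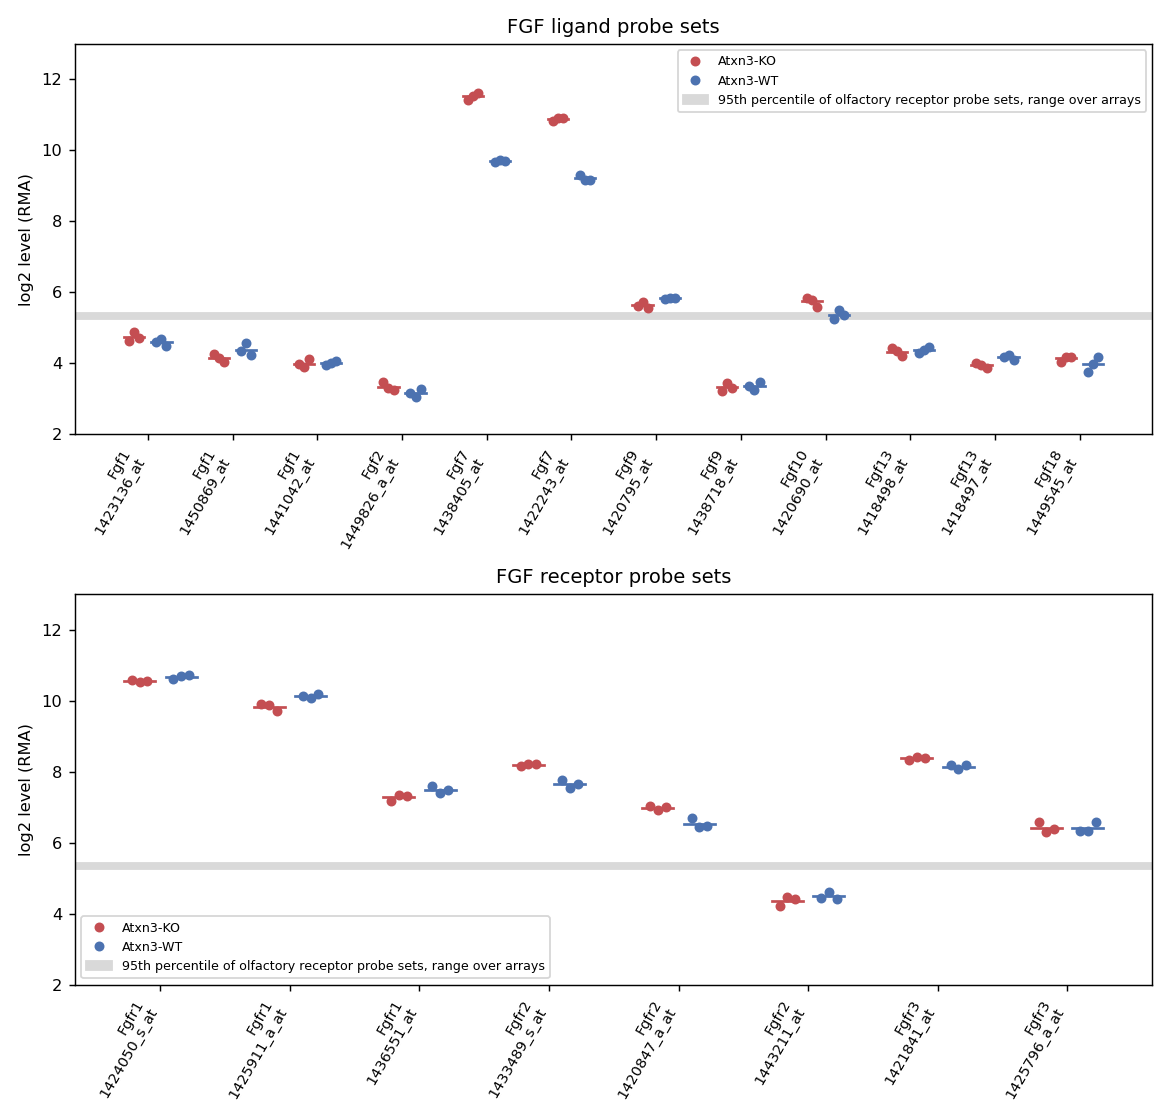
Log2 level (RMA) of each FGF ligand probe set (upper panel) and each FGF receptor probe set (lower panel) on the 3 Atxn3-KO arrays (red) and the 3 Atxn3-WT arrays (blue), with a bar at each group's mean and a gray band for the 95th percentile of 44 olfactory receptor probe sets over the arrays. Both Fgf7 probe sets stand apart by genotype, with Atxn3-KO points between 10.84 and 11.62 and Atxn3-WT points between 9.15 and 9.74, and most other ligand probe sets lie at or below the band.

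Fgf7, the keratinocyte growth factor, gave the widest separation of the family. Its probe set 1438405_at read 11.42, 11.53 and 11.62 on the Atxn3-KO arrays, against 9.66, 9.74 and 9.71 on the Atxn3-WT arrays. The groups did not overlap, as for 41.1% of all probe sets, and the gap between them was many times the spread within either. Fgf7 averaged 11.52 ± 0.097 in Atxn3-KO MEFs and 9.70 ± 0.040 in Atxn3-WT MEFs (SD, n = 3 each), a log2 difference of 1.82 with a 95% interval of 1.68 to 1.96 (adjusted p = 2.59e-06, limma), or 3.53-fold higher. A second Fgf7 probe set, 1422243_at, read 10.84, 10.90 and 10.91 on the Atxn3-KO arrays, against 9.32, 9.15 and 9.17 on the Atxn3-WT arrays. It gave nearly the same answer, a log2 difference of 1.67 (standard error 0.058, adjusted p = 3.18e-06) or 3.18-fold higher, again with no overlap. Over 13 alternatives in processing or arrays used, the Fgf7 difference ran between 1.77 and 1.87 for the first probe set and between 1.64 and 1.72 for the second, and both passed in each.

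Fgf10, the closest relative of FGF7 by receptor use, rose by much less and from a dim level. Its probe set 1420690_at read 5.84, 5.79 and 5.60 on the Atxn3-KO arrays, against 5.24, 5.49 and 5.35 on the Atxn3-WT arrays. The groups did not overlap, but the lowest Atxn3-KO array read 5.60 and the highest Atxn3-WT array 5.49. The log2 difference was 0.38 (standard error 0.087, adjusted p = 0.0161), or 1.30-fold, and 4 of the 6 arrays lay above the 95th percentile of the olfactory receptor probe sets. The adjusted p was 0.0556 without Atxn3-KO replicate 1, 0.0544 without Atxn3-KO replicate 2, 0.0540 without Atxn3-WT replicate 1 and 0.0503 without Atxn3-WT replicate 3. Set against each other, the change of Fgf7 exceeded that of Fgf10 by 1.44 on the log2 scale. This was 1 of 4 such comparisons, all chosen after the values were seen, and each had an exact two-sided permutation p of 0.1, the smallest that 3 arrays against 3 can give.

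The ligands that bind IIIc-type receptors showed small differences or none past the threshold, at low levels. Fgf9, a growth factor of mesenchyme and epithelium in the lung and gonad, read 5.60, 5.74 and 5.56 on the Atxn3-KO arrays, against 5.82, 5.84 and 5.84 on the Atxn3-WT arrays, for probe set 1420795_at. The groups did not overlap, and Fgf9 fell by 0.20 (standard error 0.056, adjusted p = 0.0376). That call was lost in 8 of 12 alternatives, over which the adjusted p ran between 0.0172 and 0.105, among them those without Atxn3-KO replicate 1 (0.105), Atxn3-KO replicate 3 (0.0970), Atxn3-WT replicate 1 (0.0885), Atxn3-WT replicate 2 (0.0925) and Atxn3-WT replicate 3 (0.0965). The other Fgf9 probe set, 1438718_at, was under the 25th percentile on all 6 arrays, with a difference of -0.033 (adjusted p = 0.810).

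Fgf2, basic FGF, a mitogen of cultured fibroblasts, had 1 probe set, 1449826_a_at, which read 3.48, 3.30 and 3.24 on the Atxn3-KO arrays, against 3.17, 3.06 and 3.26 on the Atxn3-WT arrays. The groups overlapped, and all 6 values lay below the 25th percentile of their array. The Fgf2 difference was 0.18 with a 95% interval of -0.0071 to 0.36 (adjusted p = 0.151). Fgf1, acidic FGF, had 3 probe sets with differences of 0.15 (1423136_at, adjusted p = 0.230), -0.23 (1450869_at, adjusted p = 0.118) and -0.023 (1441042_at, adjusted p = 0.839). In all 3 the groups overlapped and no array lay above the olfactory receptor percentile. Fgf18, which acts on cartilage and bone, read 4.04, 4.19 and 4.19 on the Atxn3-KO arrays, against 3.75, 3.98 and 4.18 on the Atxn3-WT arrays. Its difference of 0.17 had a 95% interval of -0.086 to 0.42 (adjusted p = 0.320), so a change of either sign lies within it.

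Fgf13, the intracellular family member, was read by 2 probe sets that did not give the same answer. Probe set 1418497_at read 4.02, 3.97 and 3.86 on the Atxn3-KO arrays, against 4.17, 4.23 and 4.11 on the Atxn3-WT arrays, and fell by 0.22 (standard error 0.057, adjusted p = 0.0290) with no overlap. Probe set 1418498_at read 4.43, 4.34 and 4.20 on the Atxn3-KO arrays, against 4.28, 4.38 and 4.46 on the Atxn3-WT arrays, with overlapping groups and a difference of -0.051 (adjusted p = 0.668). The values of the first lay below the 25th percentile on all 6 arrays. The adjusted p of that Fgf13 probe set was 0.0689 without Atxn3-KO replicate 2, 0.0739 without Atxn3-KO replicate 3, 0.0780 without Atxn3-WT replicate 1 and 0.0897 without Atxn3-WT replicate 2.

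**Figure D2:**
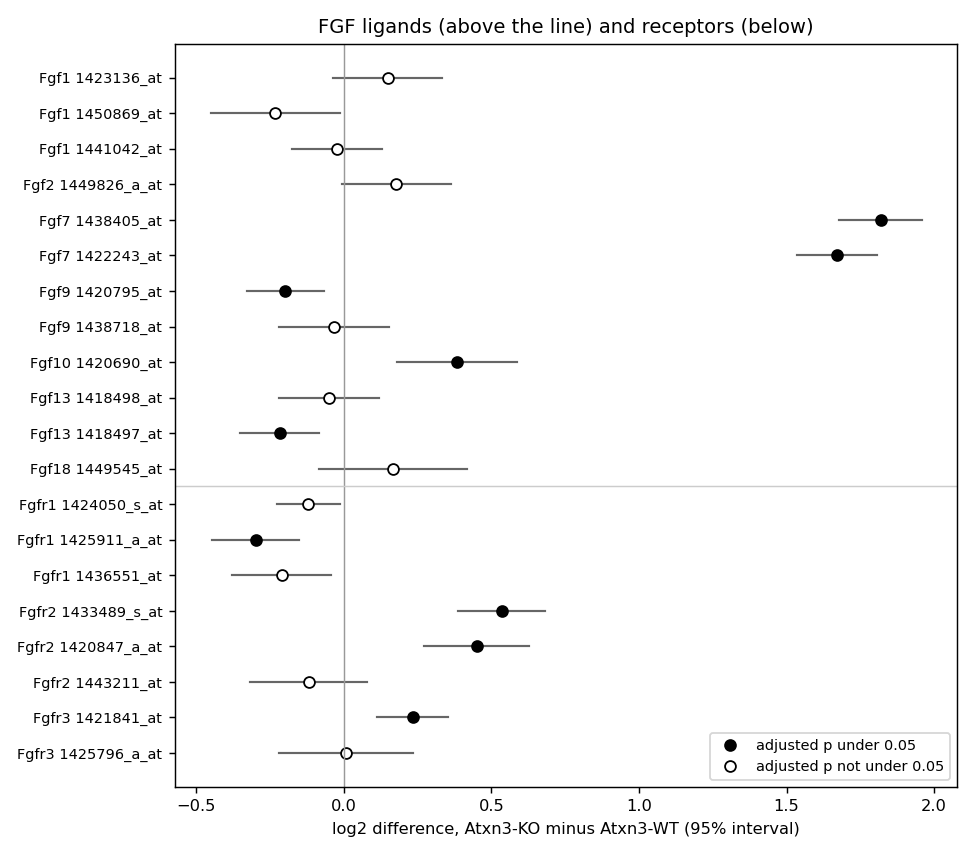
Log2 difference, Atxn3-KO minus Atxn3-WT, of each of the 20 probe sets with its 95% interval, ligands above the gray line and receptors below it; filled points passed an adjusted p of 0.05. Fgf7 lies at 1.82 and 1.67, no other interval reaches 0.7, and the Fgfr1 probe sets lie below 0 while 2 of 3 Fgfr2 probe sets lie above it.

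The 3 receptors moved in different directions. Fgfr2, the receptor whose IIIb form binds FGF7 and FGF10, rose in Atxn3-KO MEFs. Its probe set 1433489_s_at read 8.15, 8.21 and 8.21 on the Atxn3-KO arrays, against 7.77, 7.55 and 7.65 on the Atxn3-WT arrays. Every Atxn3-KO value was above every Atxn3-WT value, and the log2 difference was 0.53 (standard error 0.063, adjusted p = 8.55e-04), or 1.45-fold. A second Fgfr2 probe set, 1420847_a_at, read 7.04, 6.93 and 6.99 on the Atxn3-KO arrays, against 6.70, 6.43 and 6.47 on the Atxn3-WT arrays. Those groups did not overlap either, with a difference of 0.45 (standard error 0.076, adjusted p = 0.00435). Both Fgfr2 differences passed in all 13 alternatives, at 0.48 to 0.59 and 0.40 to 0.53. The remaining Fgfr2 probe set, 1443211_at, lay below the olfactory receptor percentile on every array and had a difference of -0.12 (adjusted p = 0.365). Neither the labels nor the annotation says which splice form an Fgfr2 probe set reads.

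Fgfr3, a receptor best known as a brake on bone growth, rose by less. Probe set 1421841_at read 8.34, 8.41 and 8.38 on the Atxn3-KO arrays, against 8.19, 8.06 and 8.18 on the Atxn3-WT arrays. The groups did not overlap, and the difference was 0.23 (standard error 0.051, adjusted p = 0.0141), with an adjusted p of 0.0538 without Atxn3-KO replicate 2. The other Fgfr3 probe set, 1425796_a_at, read 6.59, 6.29 and 6.38 on the Atxn3-KO arrays, against 6.33, 6.34 and 6.58 on the Atxn3-WT arrays. Those values overlapped fully, with a difference of 0.0068 (adjusted p = 0.971), so the rise of Fgfr3 rests on 1 of its 2 probe sets.

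Fgfr1, the FGF receptor that fibroblasts are best known to carry, was lower in Atxn3-KO MEFs on each of its 3 probe sets, by amounts that passed the threshold in 1 of them. Probe set 1425911_a_at read 9.91, 9.87 and 9.72 on the Atxn3-KO arrays, against 10.12, 10.08 and 10.20 on the Atxn3-WT arrays. It fell by 0.30 (standard error 0.063, adjusted p = 0.0119) with no overlap, and passed in all 13 alternatives. Probe set 1424050_s_at read 10.57, 10.53 and 10.57 on the Atxn3-KO arrays, against 10.62, 10.69 and 10.72 on the Atxn3-WT arrays, a difference of -0.12 (adjusted p = 0.0964). Probe set 1436551_at read 7.16, 7.33 and 7.32 on the Atxn3-KO arrays, against 7.59, 7.38 and 7.48 on the Atxn3-WT arrays, a difference of -0.21 (adjusted p = 0.0707). In all 3 Fgfr1 probe sets the Atxn3-KO values lay below the Atxn3-WT values without overlap. Groups did not overlap, in either direction, in 41.1% of all probe sets. Taking the probe set of highest mean for each receptor, the change of Fgfr2 exceeded that of Fgfr1 by 0.66, the change of Fgfr3 exceeded that of Fgfr1 by 0.35, and the change of Fgfr2 exceeded that of Fgfr3 by 0.30, the other 3 comparisons at an exact two-sided permutation p of 0.1.

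Markers of cells that carry the epithelial FGFR2 form were read beside these receptors. Of 12 epithelial markers, 2 rose (Krt18, a simple epithelial keratin, by 1.27, and Epcam by 0.38, on 1 of its 2 probe sets) and 1 fell (Esrp2 by 0.53, on 1 of its 2 probe sets). Krt18 was dim, at 5.74, 5.51 and 5.64 on the Atxn3-KO arrays, against 4.38, 4.40 and 4.31 on the Atxn3-WT arrays. It lay above the olfactory receptor percentile on the Atxn3-KO arrays alone. ESRP1 and ESRP2 are splicing factors that promote the IIIb form of FGFR2. Esrp1 and Cdh1, the gene for E-cadherin, lay below the olfactory receptor percentile on every array. The mean level of the 12 epithelial markers was 5.77 to 5.83 on the Atxn3-KO arrays and 5.65 to 5.71 on the Atxn3-WT arrays. Of the 12, 5 lay below that percentile on all arrays and 5 above it on all arrays. Among those above were the keratin gene Krt19, at 9.18 to 9.71 over the 6 arrays, and Epcam, at 8.48 to 8.99. Of 8 endothelial, 9 macrophage and 8 skeletal muscle markers, 0 passed in limma, with 0, 3 and 0 higher and 0 lower at an unadjusted p under 0.05. Of 9 neural markers 2 rose and 2 fell, with Map2, a microtubule-associated protein, 1.55 higher, Tubb3, a neuronal tubulin, at a difference of -0.95 and Nes, the intermediate filament nestin, at -0.51. Of 5 adipocyte markers 1 rose. The share called was 25% of epithelial, 44.4% of neural and 20% of adipocyte markers, beside 31.8% of all genes. The part of other cell types in the FGF and receptor differences was not tested.

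Around the 10 genes, 85 of 93 genes listed for the rest of the FGF pathway had a probe set. Of these 85, 19 rose and 19 fell in Atxn3-KO MEFs, 44.7% of them, beside 31.8% of all genes. The median log2 difference over the 85 was 0.032, and over all genes 0.0021. The lists differ in level. All measured genes of the RAS-ERK cascade, feedback inhibitor and ERK-responsive lists lay above the olfactory receptor percentile on every array. Of 15 other FGF ligands, 2 did. The share of all genes covers genes of every level, and no comparison at matched levels was made. Without Atxn3-WT replicate 1 the number that rose was 12.

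**Figure D3:**
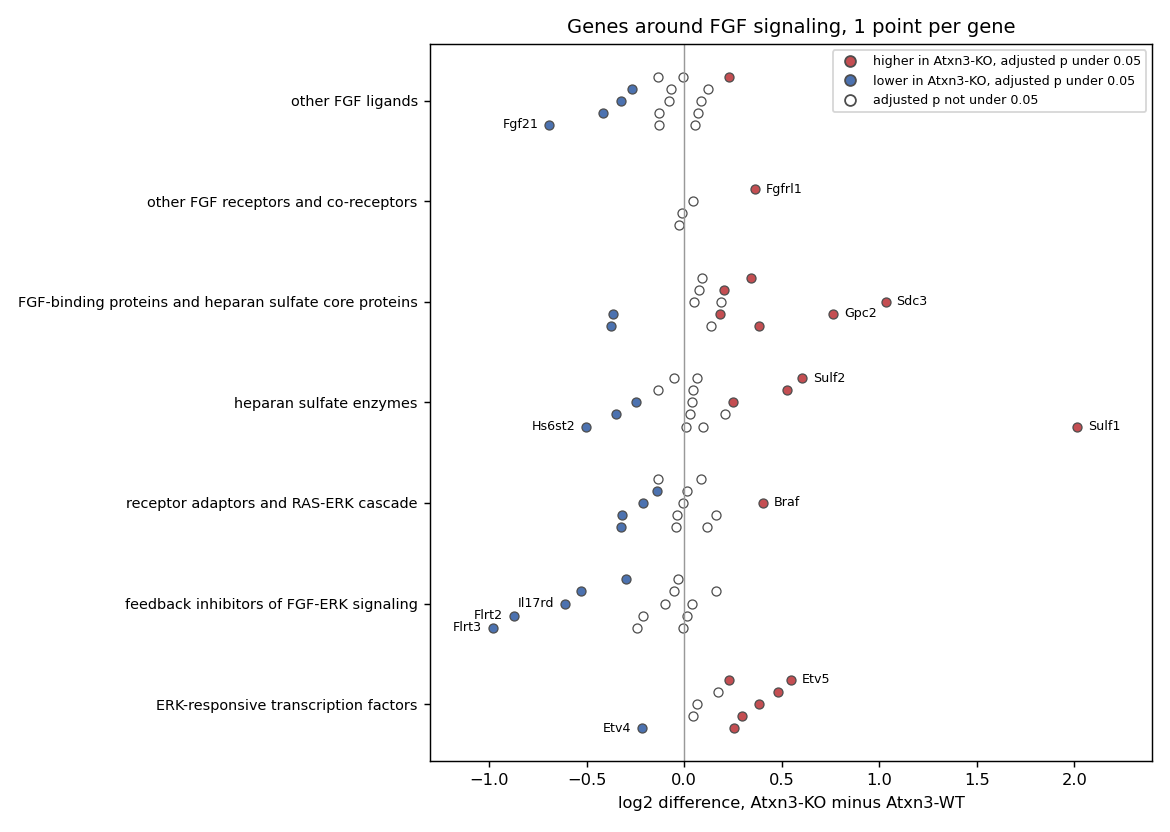
Log2 difference, Atxn3-KO minus Atxn3-WT, of 85 genes around FGF signaling in 7 lists, 1 point per gene on its probe set of highest mean, red where higher and blue where lower in Atxn3-KO MEFs with an adjusted p under 0.05, open where not. Sulf1 lies at 2.01 and Sdc3 at 1.03, the feedback inhibitor list runs to -0.98 for Flrt3 with no filled point above 0, and 6 filled points of the ERK-responsive list lie above 0.

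Among 15 other FGF ligands, 1 rose and 4 fell. The share called was 33.3% (6.67% higher and 26.7% lower), beside 31.8% of all genes (17.1% higher and 14.7% lower). Fgf21, a metabolic hormone of liver and fat, read between 5.84 and 6.35 on the Atxn3-KO arrays, against 6.65 to 6.81 on the Atxn3-WT arrays. Fgf21 fell by 0.69 (adjusted p = 0.00578) with no overlap. Fgf11, another intracellular FGF, fell by 0.42 (adjusted p = 0.00265), Fgf5, a brake on hair growth, by 0.32 (adjusted p = 0.0268) and Fgf22 by 0.27 (adjusted p = 0.0232). The Fgf5 values lay under the 25th percentile on all 6 arrays. Each of the 3 genes had a second probe set that did not pass and went the other way, at 0.063 for Fgf11, 0.017 for Fgf5 and 0.14 for Fgf22. Fgf23, the phosphate-regulating hormone, rose by 0.23 (adjusted p = 0.0218) at a level under the 25th percentile on all 6 arrays, and 0 rose without any one of Atxn3-KO replicate 2, Atxn3-KO replicate 3, Atxn3-WT replicate 1 and Atxn3-WT replicate 3. Of the 15, 11 lay at or below the olfactory receptor percentile on every array, and 2 fell in place of 4 without Atxn3-KO replicate 1, Atxn3-KO replicate 3 or Atxn3-WT replicate 3. Among 4 other receptors and co-receptors, Fgfrl1, a receptor without a kinase domain, rose by 0.36 (adjusted p = 9.95e-04) and by 0.35 on its other probe set, while Fgfr4, Kl and Klb did not pass.

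Among 13 FGF-binding proteins and heparan sulfate core proteins, 6 rose and 2 fell. The share called was 61.5% (46.2% higher and 15.4% lower), beside 31.8% of all genes (17.1% higher and 14.7% lower). Sdc3, a membrane syndecan, read 10.76, 10.80 and 10.72 on the Atxn3-KO arrays, against 9.77, 9.61 and 9.80 on the Atxn3-WT arrays. It rose by 1.03 (standard error 0.062, adjusted p = 3.95e-05), with no overlap, and its other 2 probe sets gave 0.73 and 0.09, the last not past the threshold (adjusted p = 0.216). The glypican Gpc2 rose by 0.76 (adjusted p = 0.00374) and Agrn, the proteoglycan agrin, by 0.39 (adjusted p = 6.52e-04), whereas the glypican Gpc1 fell by 0.38 (adjusted p = 6.70e-04). The other Agrn probe set did not pass, at 0.09 (adjusted p = 0.552).

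Among 16 measured heparan sulfate enzymes, 4 rose and 3 fell. The share called was 43.8% (25% higher and 18.8% lower), beside 31.8% of all genes (17.1% higher and 14.7% lower). Sulf1, an extracellular enzyme that takes 6-O-sulfate groups off heparan sulfate and is known to dampen FGF signaling, read 8.32, 8.45 and 8.50 on the Atxn3-KO arrays, against 6.05, 6.63 and 6.55 on the Atxn3-WT arrays. The groups were far apart, and Sulf1 rose by 2.01 (standard error 0.145, adjusted p = 9.34e-05), or 4.04-fold. A second Sulf1 probe set gave 2.03 (adjusted p = 5.70e-06), and the remaining one gave 0.13 (adjusted p = 0.301). Sulf2, its relative, rose by 0.60 (adjusted p = 7.83e-05), and Ext1, which builds the heparan sulfate chain, by 0.53 (adjusted p = 1.40e-04). Another Sulf2 probe set rose by 0.68 (adjusted p = 1.04e-04), and the remaining one gave -0.15 (adjusted p = 0.089). The other Ext1 probe set gave 0.10 (adjusted p = 0.582). Hs6st2, which adds the 6-O-sulfate groups, fell by 0.50 (adjusted p = 1.51e-04). Its other probe sets gave -0.65, -0.79 and -5.3e-05, the last not past the threshold. Ndst1 was not analysed here.

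Among 13 measured receptor adaptors and members of the RAS-ERK cascade, 1 rose and 4 fell, all by less than 0.5. The share called was 38.5% (7.69% higher and 30.8% lower), beside 31.8% of all genes (17.1% higher and 14.7% lower). Braf, a kinase at the top of the cascade, rose by 0.41 (adjusted p = 0.00514). Gab1, a docking protein, fell by 0.32 (adjusted p = 0.00196), Nras, a RAS GTPase, by 0.32 (adjusted p = 0.00189), Araf, a relative of Braf, by 0.21 (adjusted p = 0.0183) and Ptpn11, the phosphatase SHP2, by 0.14 (adjusted p = 0.0405). Braf, Nras, Araf and Ptpn11 each also had a probe set that did not pass. The number that fell was 2 without any one of Atxn3-KO replicate 2, Atxn3-KO replicate 3, Atxn3-WT replicate 1 and Atxn3-WT replicate 3.

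Among 14 genes listed as feedback inhibitors of FGF-ERK signaling, 5 fell and 0 rose in limma, with 7 lower and 0 higher at an unadjusted p under 0.05. The share called was 35.7%, beside 31.8% of all genes, and the share lower 35.7%, beside 14.7%. The median log2 difference of the 14 was -0.15. Flrt3 read 9.31, 9.23 and 9.43 on the Atxn3-KO arrays, against 10.36, 10.30 and 10.26 on the Atxn3-WT arrays, and fell by 0.98 (adjusted p = 4.65e-05), and its other probe set fell by 1.04 (adjusted p = 1.13e-05). Flrt2 read 9.49, 9.41 and 9.36 on the Atxn3-KO arrays, against 10.32, 10.32 and 10.23 on the Atxn3-WT arrays, and fell by 0.87 (adjusted p = 4.22e-05). FLRT2 and FLRT3 are membrane proteins that bind FGF receptors and other adhesion partners. In Xenopus FLRT3 was described as raising rather than lowering FGF signaling, so the list's name does not describe FLRT3 and may not describe FLRT2. Both genes are counted among the 5 that fell, and theirs were the largest falls of the list. Il17rd, also called Sef, an inhibitor at the receptor, fell by 0.61 (adjusted p = 1.76e-04), Spred2, which blocks RAF activation, by 0.53 (adjusted p = 2.97e-04), and Spry2, a Sprouty inhibitor of the same cascade, by 0.30 (adjusted p = 0.0191). Other Spred2 probe sets fell by 0.55 and 0.35 or did not pass. Dusp6, the ERK phosphatase widely used as a readout of FGF signaling, read 9.47, 9.59 and 9.52 on the Atxn3-KO arrays, against 9.61, 9.63 and 9.63 on the Atxn3-WT arrays, a difference of -0.10 (adjusted p = 0.185). Spry4 had a difference of -0.24 (adjusted p = 0.0601) and Spry1 of -0.05 (adjusted p = 0.495). Col3a1, Epcam, Krt19, Esrp1, Esrp2, Cdh1, Tubb3, Nes, Fgf23, Ptpn11, Spry2, Dusp6, Spry4 and Spry1 lay outside the rule for named genes and were singled out after their values were seen.

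Among 10 measured ERK-responsive transcription factors, 6 rose and 1 fell. The share called was 70% (60% higher and 10% lower), beside 31.8% of all genes (17.1% higher and 14.7% lower). Etv5, an ETS factor induced by FGF signaling in many tissues, read 8.37, 8.28 and 8.38 on the Atxn3-KO arrays, against 7.82, 7.77 and 7.79 on the Atxn3-WT arrays. It rose by 0.55 (standard error 0.047, adjusted p = 2.13e-04) with no overlap, and 1 of its other 2 probe sets also rose, by 0.36. Etv4, its close relative and named after its value was seen, read 8.17, 8.24 and 8.31 on the Atxn3-KO arrays, against 8.40, 8.49 and 8.47 on the Atxn3-WT arrays. It went the other way and fell by 0.22 (adjusted p = 0.0205). The other Etv4 probe set did not pass, at -0.08 (adjusted p = 0.41). The immediate early genes Fos, Ier2 and Egr1 rose by 0.48 (adjusted p = 0.0232), 0.38 (adjusted p = 0.00888) and 0.30 (adjusted p = 0.0272), and each had its highest value on the array of Atxn3-KO replicate 2. Fos there read 11.06, against 10.65 and 10.58 on the other Atxn3-KO arrays and 10.22 to 10.34 on the Atxn3-WT arrays. The number of ERK-responsive factors that rose was 2 without Atxn3-WT replicate 1 and 2 without Atxn3-WT replicate 2, and the 1 that fell no longer passed without any one of Atxn3-KO replicate 1, Atxn3-KO replicate 2, Atxn3-WT replicate 2 and Atxn3-WT replicate 3.

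**Figure D4:**
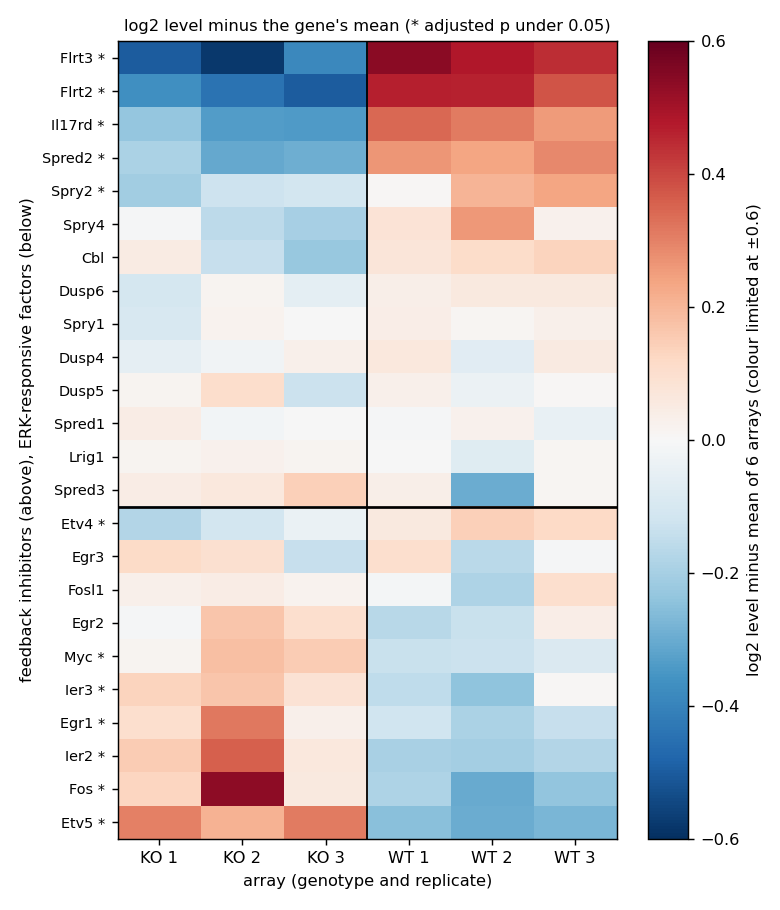
Log2 level minus the gene's own mean over the 6 arrays for 14 genes listed as feedback inhibitors (above the black line) and 10 ERK-responsive transcription factors (below it), arrays of Atxn3-KO MEFs at left and of Atxn3-WT MEFs at right, red above and blue below the mean, with a star for an adjusted p under 0.05. The 5 starred genes of the upper list, Flrt2 and Flrt3 among them, are blue on every Atxn3-KO array, Etv5 and Etv4 run in opposite directions, and Fos, Ier2 and Egr1 are deepest red on the array of Atxn3-KO replicate 2.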

How the data were processed

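RNA of 3 Atxn3-KO and 3 Atxn3-WT MEF samples was hybridized to 6 arrays, and samples were grouped by their labels. The authors deposited log2 values that they had normalized by RMA, which gives all arrays nearly the same distribution and hides any change shared by all genes. Versions of RMA and limma are not given in the sources used here.

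From 45101 probe sets, 64 controls were left out, with no filter on low values. limma 3.58.1 in R 4.3.3 (lmFit, eBayes) fitted Atxn3-KO minus Atxn3-WT with equal weights, since the weights of the authors' weighted linear model are not named. The Benjamini-Hochberg adjustment covered 45037 probe sets. The platform annotation, which can be old, names 1 gene for 34945 probe sets, several for 932 and none for 9160; the probe set of highest mean stood for a gene in gene counts. The fit was tested on simulated data with independent noise, which checks the code and cannot speak to batch or culture effects.

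The 10 genes and all lists were chosen with earlier results of these data known. Named genes were the 10 genes with every probe set, Atxn3, up to 4 per pathway list with the largest difference among those past the threshold without overlap, and marker genes past 2-fold. Other choices tried were a replicate block, array weights, renewed normalization, a filter on dim probe sets, other variance models, another probe set per gene, stricter thresholds and leaving out each array.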

Additional observations from a re-analysis of the deposited data

How the results depend on the processing

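Deviations of same-numbered arrays correlated at 0.021, -0.023 and -0.036, and those of differently numbered arrays across genotypes between -0.023 and 0.048. With 3 arrays per group these values cannot decide whether same-numbered samples shared a litter or batch, which is not stated. With the replicate block the Fgf9 difference was -0.20 (adjusted p = 0.0641), and with array weights -0.18 (adjusted p = 0.0525). Leaving out each array in turn, 4 to 6 FGF probe sets rose (6 with all arrays) and 1 to 2 fell (3 with all arrays); of pathway genes 12 to 17 rose (19) and 13 to 16 fell (19); of the list of feedback inhibitors, which includes Flrt2 and Flrt3, 4 to 6 fell (5); and of ERK-responsive factors 2 to 4 rose (6) and 0 to 1 fell (1). The number of FGF probe sets that fell was 1 without Atxn3-KO replicate 3, Atxn3-WT replicate 1 or Atxn3-WT replicate 2. With the study's thresholds (0.001 and 2-fold), 2 FGF probe sets rose and 0 fell, 2 pathway genes rose (Sulf1 and Sdc3) and 0 fell, 0 of the feedback inhibitor list fell, and 0 ERK-responsive factors rose and 0 fell, all on the probe set of highest mean for listed genes; the other Flrt3 probe set, at -1.04, passed these thresholds. Leaving out probe sets under the median level removed 11 of the 20 FGF probe sets, those of Fgf9 and Fgf10 among them, and gave Fgfr1 adjusted p-values of 0.0288 (1424050_s_at) and 0.0291 (1436551_at); an intensity trend gave 0.0147 and 0.0364, and for Fgf13 (1418497_at) 0.0517 and Fgf9 0.0810. No called difference of the 20 FGF probe sets or of Atxn3 changed sign in any alternative; single pathway genes and markers were not followed through them. The Atxn3 difference ran between -3.15 and -3.00. No probe set named one of the 10 genes together with another gene, so that alternative gave no value. Dim signals limit Fgf1, Fgf2, Fgf13, Fgf18 and the second Fgf9 probe set, where the absence of a call does not show the absence of a change.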

Other observations

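The genes whose profile over the 6 arrays, each centred on its own mean, lay closest to that of Fgf7 (1438405_at) were Mogat2, a monoacylglycerol acyltransferase, with a mean absolute difference of 0.046 on the log2 scale, Cda, a cytidine deaminase, with 0.049, and Gucy1b1, a subunit of soluble guanylate cyclase, with 0.053. Their own log2 differences between Atxn3-KO and Atxn3-WT MEFs were 1.86, 1.86 and 1.87, beside 1.82 for Fgf7. With 6 arrays in 2 groups, likeness of this kind mainly reflects a difference of like size between the genotypes. Gucy1b1 read 6.82, 6.87 and 7.05 on the Atxn3-KO arrays, against 4.90, 5.11 and 5.14 on the Atxn3-WT arrays, and lay below the olfactory receptor percentile in Atxn3-WT MEFs.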
